A study of Homo sapiens with 6 samples.

Results

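Nuclear copies of mitochondrial genes are stretches of mitochondrial DNA that were inserted into the chromosomes of the nucleus. The 8 described here were taken by name from the gene table: MTATP6P1, MTND1P23, MTND2P28, MTCO1P12, MTCO2P12, MTCO3P12, MTRNR2L8 and MTRNR2L12, of 58825 genes in all. Each was set beside the mitochondrial gene it resembles, and both MTRNR2L genes were set beside MT-RNR2. The cells were PC9, a line of human lung adenocarcinoma that carries an activating EGFR mutation and responds to the EGFR inhibitor gefitinib. They overexpressed FOXM1, a transcription factor of cell division, with the rs3742076_G allele in 3 libraries and with the rs3742076_A allele in 3 libraries. All 6 libraries came from cells given 100 nM gefitinib for 24 h, and the design names the comparison of the alleles as its question. No library without FOXM1 overexpression or without gefitinib was analysed here. The labels give neither the origin of the replicates in separate cultures nor a count of clones, so any p-value below covers no more than library-to-library spread, possibly of technical origin.

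The mitochondrial genome encodes core subunits of the respiratory chain and of ATP synthase, the ribosomal RNAs of the mitochondrial ribosome and its transfer RNAs. Most mitochondrial mRNAs carry a short poly(A) tail, so selection with oligo(dT), as used here, captures them together with nuclear mRNAs. A copy inserted into a chromosome is read with the nuclear genetic code, which differs from the mitochondrial one, and most such copies are annotated as pseudogenes. In these files the 6 copies of mRNA genes are annotated as unprocessed pseudogenes. MTRNR2L8 and MTRNR2L12 are annotated as protein coding, because copies of this kind hold a reading frame like that of humanin, a short peptide first described from MT-RNR2.

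The 6 copies of mRNA genes lay on chromosome 1 (GRCh38, + strand) within a single stretch of 5861 bases, from 629062 to 634922. MTND1P23 spanned 629062 to 629433, MTND2P28 629640 to 630683, MTCO1P12 631074 to 632616, MTCO2P12 632757 to 633438, MTATP6P1 633696 to 634376 and MTCO3P12 634376 to 634922. Their order was that of the mitochondrial genome. The distance between a base on chromosome 1 and its mitochondrial counterpart stayed within 625169 to 625171 over all 6 copies. MTRNR2L8 lay apart on chromosome 11 (10507887 to 10509189, − strand) and MTRNR2L12 on chromosome 3 (96617188 to 96618236, − strand). Each of the 8 had 1 annotated transcript of 1 exon.

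The copies on chromosome 1 were nearly the same as the mitochondrial genes. Over the aligned bases of the GENCODE release 29 transcripts, identity was 98.5% for MTATP6P1, 99.1% for MTND1P23, 98.4% for MTND2P28, 98.6% for MTCO1P12, 97.95% for MTCO2P12 and 98.2% for MTCO3P12. The rRNA copies had diverged further, to 93.0% for MTRNR2L8 and 95.0% for MTRNR2L12. Some copies were partial. MTND1P23 aligned over 352 columns from base 605 of the 956 of MT-ND1, and MTCO3P12 over 547 of the 784 bases of MT-CO3. MTRNR2L8 and MTRNR2L12 aligned over 1302 and 1048 of the 1559 bases of MT-RNR2. For these pairs, the percentages below set a part against the FPKM of the whole gene. Windows of 150 bases, the length of 1 read, show where a single read of these GENCODE sequences could not tell a copy from its counterpart. The sequences of the PC9 cells themselves were not compared. In MTND2P28, 140 of 895 windows had the same letters as MT-ND2, in MTCO1P12 202 of 1394 had those of MT-CO1, and in MTND1P23 9 of 223 had those of MT-ND1. For MTATP6P1, MTCO2P12, MTCO3P12, MTRNR2L8 and MTRNR2L12 no window matched the counterpart throughout. How read pairs that fit both places were assigned is not given in the sources used here, so every level of a copy below is uncertain as a measure of RNA made from the nuclear stretch.

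The windows of MTATP6P1 and MTCO3P12 with the fewest differences from MT-ATP6 and MT-CO3 are shown, since they carry how little separates a copy from its counterpart. Capitals mark the 1 base that differs within each pair.
MTATP6P1, chr1:633871-634020, + strand: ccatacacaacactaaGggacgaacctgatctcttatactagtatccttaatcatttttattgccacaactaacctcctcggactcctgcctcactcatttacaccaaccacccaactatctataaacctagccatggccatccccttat
MT-ATP6, chrM:8702-8851, + strand: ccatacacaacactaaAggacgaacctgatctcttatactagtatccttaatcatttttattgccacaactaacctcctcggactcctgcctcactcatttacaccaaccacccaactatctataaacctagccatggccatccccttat
MTCO3P12, chr1:634499-634648, + strand: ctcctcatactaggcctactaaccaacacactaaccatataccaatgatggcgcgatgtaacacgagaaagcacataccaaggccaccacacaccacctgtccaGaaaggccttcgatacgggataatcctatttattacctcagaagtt
MT-CO3, chrM:9330-9479, + strand: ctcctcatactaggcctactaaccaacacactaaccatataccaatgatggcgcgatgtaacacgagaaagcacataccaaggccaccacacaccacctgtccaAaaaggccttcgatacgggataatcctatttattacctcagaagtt

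The window of MTND1P23 with the fewest differences is shown because a read from it fits MT-ND1 (chrM:4105-4254) letter for letter.
MTND1P23, chr1:629275-629424, + strand: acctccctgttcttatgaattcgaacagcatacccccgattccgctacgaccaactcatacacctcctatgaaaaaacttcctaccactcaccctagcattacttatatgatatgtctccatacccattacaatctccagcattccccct

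The humanin-like reading frames of the rRNA copies are shown with their stop codon and the stretch of MT-RNR2 aligned with them, each 75 bases long. Capitals mark the bases that differ from MT-RNR2, 2 in each copy.
MTRNR2L8, chr11:10508152-10508226, - strand: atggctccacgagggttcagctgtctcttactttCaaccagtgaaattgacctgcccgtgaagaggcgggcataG
MTRNR2L12, chr3:96617199-96617273, - strand: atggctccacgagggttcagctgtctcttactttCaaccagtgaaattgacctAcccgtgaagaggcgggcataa
MT-RNR2, chrM:2633-2707, + strand: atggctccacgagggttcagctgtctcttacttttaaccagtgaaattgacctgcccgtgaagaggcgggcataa

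The number of genes detected varied little between libraries, but the groups did not overlap. Between 12451 and 12858 genes reached 1 FPKM (fragments per kilobase of transcript, scaled to the mapped fragments of the library) per library. The range was 12700 to 12858 in G libraries and 12451 to 12548 in A libraries. The summed FPKM was lower in G libraries, at 254615 ± 812 against 274567 ± 3861 in A libraries (SD, n = 3 each), a ratio of 0.927. Genes of the mitochondrial genome made up 18.7% ± 0.98 of the summed FPKM in G libraries and 22.1% ± 0.070 in A libraries (SD, n = 3 each). FOXM1 was at 14.6, 14.3 and 13.96 FPKM in G libraries and at 25.5, 10.5 and 10.1 FPKM in A libraries, so A replicate 1 stood apart. All 6 epithelial markers reached 1 FPKM in every library, while all 5 markers of the lung lineage stayed under 1 FPKM in every library. Markers of leukocytes, endothelium and fibroblasts stayed under 1 FPKM, except CD68 and COL1A1.

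MTATP6P1 was the most abundant of the 8, and the others spread over almost the whole range of expressed genes. On the FPKM scale, which is per length, its mean level over 6 libraries was 694 FPKM, rank 35 among 58825 genes. MTND2P28 followed with 361 FPKM (rank 69) and MTCO1P12 with 272 FPKM (rank 93). MTND1P23 had 37.1 FPKM, MTCO3P12 10.7 FPKM, MTCO2P12 7.71 FPKM, MTRNR2L12 1.11 FPKM and MTRNR2L8 0.926 FPKM. The levels of MTND2P28 and MTCO1P12 overlapped across libraries, as did those of MTCO3P12 and MTCO2P12, although the order within each pair was the same in 6 of 6 libraries. MTRNR2L12 was above MTRNR2L8 in 2 of 6 libraries, so these neighbours did not differ beyond their spread. MTATP6P1, MTND2P28 and MTCO1P12 together held 95.4% to 96.4% of the summed FPKM of the 8 in each library. The 8 summed to 1107 ± 201 FPKM in G libraries and 1663 ± 80.2 FPKM in A libraries (SD, n = 3 each), which was 0.435% and 0.606% of all FPKM.

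**Figure D1:**
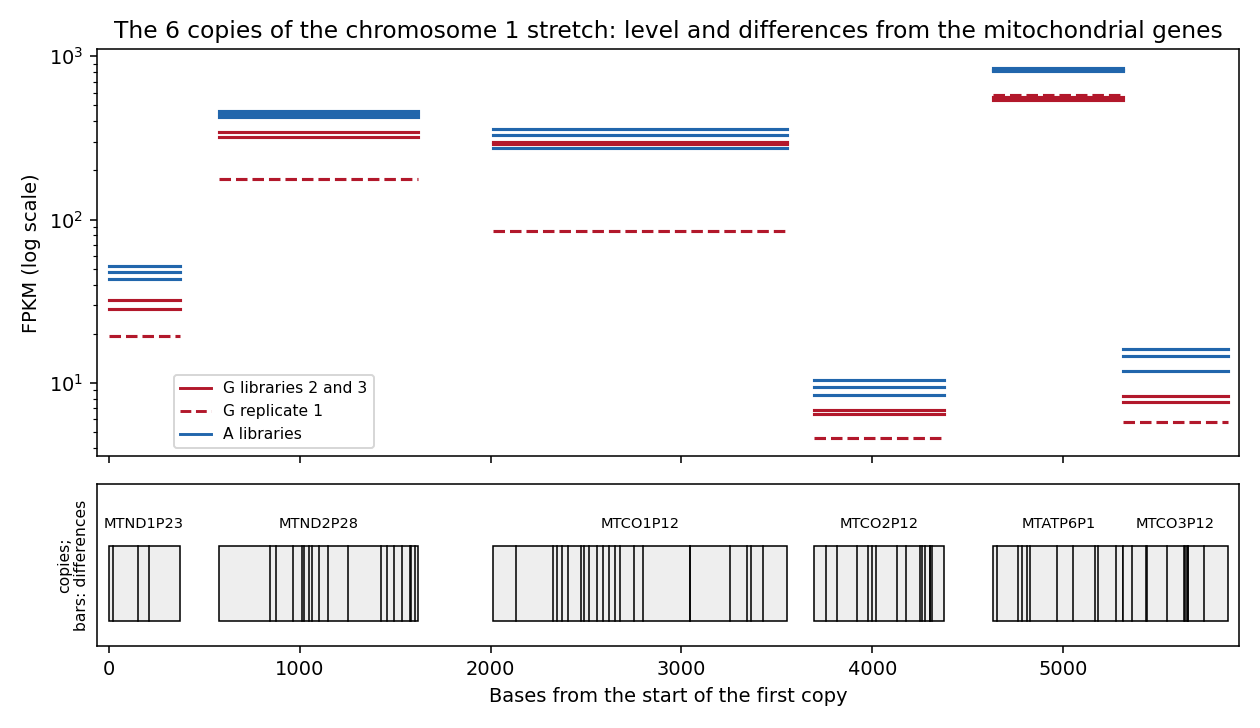
Level of the 6 copies along the chromosome 1 stretch (upper panel, FPKM on a log axis, 1 line per library) over a map of the copies with the bases that differ from the mitochondrial gene as bars (lower panel). MTATP6P1 and MTCO3P12 touch at 1 base, and their levels lie 52.9 to 101 times apart.

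Levels changed abruptly along the stretch. MTATP6P1 and the adjoining MTCO3P12 share 1 base, yet MTATP6P1 was 77.5 times as high as MTCO3P12 by group means in G libraries and 58.6 times as high in A libraries. On the mitochondrial genome the order of the same neighbours was the opposite, with MT-CO3 at 3.49 times MT-ATP6 in G libraries and 3.89 times in A libraries. MTATP8P1, the copy of the ATP synthase gene MT-ATP8, lay between MTCO2P12 and MTATP6P1 and overlapped the start of MTATP6P1 (633535 to 633741). It had only 0.044, 0.067 and 0.150 FPKM in G libraries and 0.150, 0.023 and 0.075 FPKM in A libraries, while MT-ATP8 was at 3.46 times MT-ATP6 in G libraries and 3.40 times in A libraries. On the − strand, the 8 transcripts of AL669831 that span parts of the stretch were each at 0.678 FPKM or less in every library, and the microRNA AC114498 within it had no estimate in any library. The strand setting of the quantification is not given, so reads of the opposite strands cannot be told apart here.

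The test compared log2(FPKM + 1) between G and A libraries with limma over 12787 genes that reached 1 FPKM in at least 3 libraries. This scale understates the change of genes near 1 FPKM. Of the 8 copies, 7 could be tested. MTATP6P1 alone was called, lower in G, at an adjusted p under 0.05, where 0.0782% of all tested genes were called lower and 0.109% in either direction. No copy was called higher, against 0.0313% of all tested genes. In 5 of the 7 the groups did not overlap and G was lower, a pattern found in 9.57% of all tested genes. All 5 were among the 6 copies of the chromosome 1 stretch, so they do not count as separate observations. No copy had all G libraries above all A libraries, as 15.4% of tested genes did. At an unadjusted p under 0.05, 5 of the 7 were lower, against 6.82% of tested genes. The log2 change was negative in 7 of 7 copies, with a median of -0.70, while it was negative in 44.9% of all tested genes, with a median of 0.02. Without G replicate 1 the median of the 7 was -0.45, and without A replicate 2 the change was negative in 6 of them. Of the 37 genes of the mitochondrial genome, 4 fell and 32 had a negative change, with a median of -0.36. The pattern of the copies was also that of the genes they resemble. In 6 of the 7 counterparts the groups did not overlap and G was lower, and all 7 changes were negative, with a median of -0.54. Of the 13 mitochondrial mRNAs, 12 had such groups and 13 a negative change, with a median of -0.51. The number of genes called over the whole table was 14, and it was 6, 5, 5 and 5 without G replicate 2, G replicate 3, A replicate 2 and A replicate 3. In bulk RNA, fewer cells of a kind and less RNA per cell cannot be told apart.

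**Figure D2:**
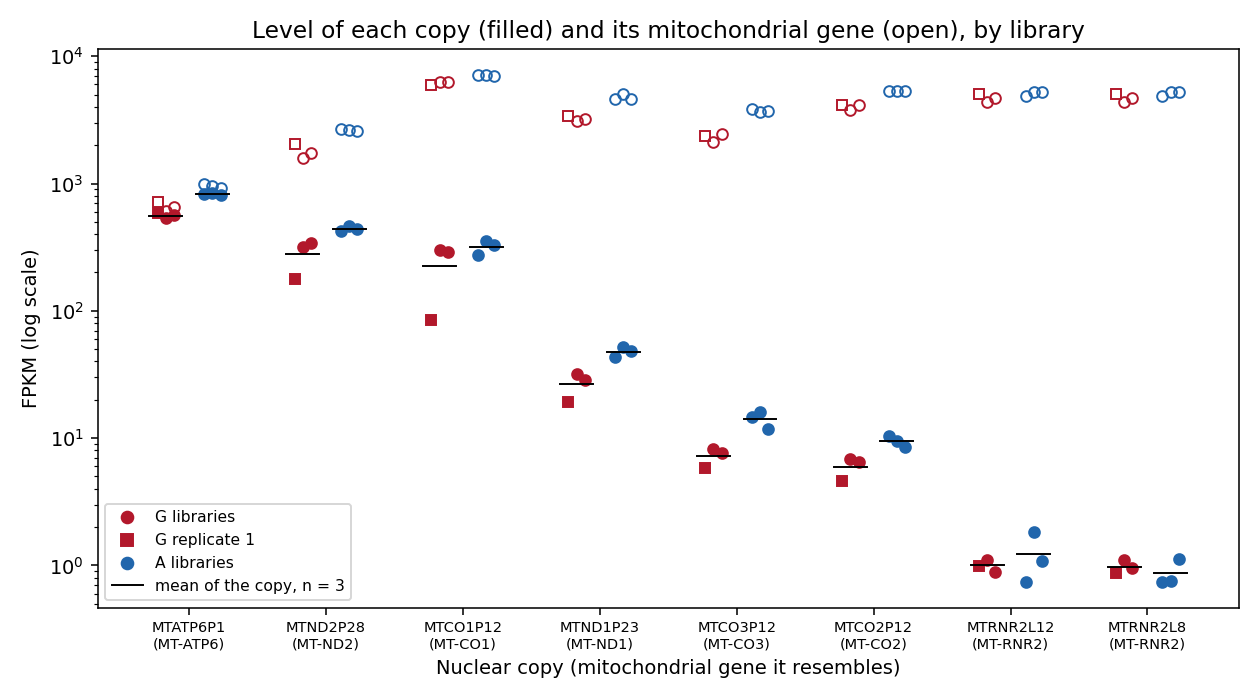
Level of each copy (filled) and of its mitochondrial gene (open) in each library, in FPKM on a log axis, with G to the left of A and the mean of the copy as a line (n = 3). MTATP6P1 lies close under MT-ATP6, while MTCO2P12 and MTCO3P12 lie far below MT-CO2 and MT-CO3.

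MTATP6P1 resembles MT-ATP6, which encodes the ATP synthase subunit that forms its proton channel. The copy was at 583, 537 and 561 FPKM in G libraries and at 824, 848 and 810.04 FPKM in A libraries. The 3 G libraries were all below the 3 A libraries, and the spread within each group was small. MTATP6P1 fell by 0.56 ± 0.046 (SE) on the log2 scale (95% interval -0.67 to -0.45, limma adjusted p = 0.0241). The level in G libraries was 0.677 of that in A libraries. In the authors' deposited table the same gene had a log2 ratio of -0.56, a p-value of 3.5e-05 and a q-value of 0.0153, and it was not marked as significant.

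The call of MTATP6P1 was near its threshold. It ended when G replicate 2, G replicate 3, A replicate 1, A replicate 2 or A replicate 3 was left out (adjusted p 0.0730, 0.0961, 0.0558, 0.117 and 0.0964), and held without G replicate 1 (adjusted p = 0.0490). The change itself stayed between -0.59 and -0.53 on the log2 scale over these 6 fits. The single transcript of MTATP6P1 had the same values in the transcript table, and over the 29990 transcripts tested there its adjusted p was 0.0509. The call also ended with no filter (adjusted p = 0.204), with a filter of 0.1 FPKM (adjusted p = 0.0776), under quantile normalization (adjusted p = 0.143) and with no variance trend (adjusted p = 0.0735).

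MT-ATP6 was at 720, 613 and 657 FPKM in G libraries and at 997, 960 and 924 FPKM in A libraries, so its groups did not overlap either. Its log2 change was -0.54 (95% interval -0.70 to -0.37), with a limma adjusted p of 0.0885. The copy and the gene thus had nearly the same level and nearly the same change. MTATP6P1 was at 81.0%, 87.5% and 85.5% of MT-ATP6 in G libraries and at 82.6%, 88.4% and 87.6% in A libraries. The difference of the log2 ratio, G minus A, was -0.03 ± 0.045 (SE), with p = 0.5 by an exact permutation of the library labels (two-sided). With 3 libraries a group, 0.1 is the lowest p such a test can reach. Added together, copy and gene were at 1224 ± 76.2 FPKM in G libraries and 1788 ± 46.7 FPKM in A libraries (SD, n = 3 each). This sum had a log2 change of -0.55 and a limma adjusted p of 0.0426. Whether read pairs that fit both places were counted once, more than once or not at all was not tested.

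MTND2P28 and MTND1P23 resemble MT-ND2 and MT-ND1, which encode membrane subunits of complex I, the first proton pump of the respiratory chain. MTND2P28 was at 177, 318 and 344 FPKM in G libraries and at 423, 465 and 441 FPKM in A libraries. MTND1P23 was at 19.3, 32.1 and 28.4 FPKM in G libraries and at 43.2, 51.7 and 48.0 FPKM in A libraries. For both, every G library was below every A library, and G replicate 1 was the lowest of the 6. The log2 change was -0.72 ± 0.24 (SE; 95% interval -1.31 to -0.13) for MTND2P28, with a limma adjusted p of 0.237. For MTND1P23 it was -0.84 ± 0.18 (SE; 95% interval -1.28 to -0.40), with a limma adjusted p of 0.165. Neither passed the threshold. Without G replicate 1 the change of MTND2P28 was -0.42.

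The complex I counterparts were far more abundant than their copies. MT-ND2 was at 2027, 1594 and 1721 FPKM in G libraries and at 2667, 2633 and 2601 FPKM in A libraries, with a log2 change of -0.57 and a limma adjusted p of 0.146. MT-ND1 was at 3412, 3098 and 3227 FPKM in G libraries and at 4585, 5036 and 4641 FPKM in A libraries. It fell by 0.55 on the log2 scale (limma adjusted p = 0.0460), a call that ended when any one of the 6 libraries was left out (adjusted p 0.0671 to 0.168). Over all 19 alternatives the call of MT-ND1 held in 4, and its change was -0.26 under quantile normalization. MTND2P28 was at 8.72%, 19.98% and 19.98% of MT-ND2 in G libraries and at 15.9%, 17.7% and 16.9% in A libraries. MTND1P23 was at 0.567%, 1.04% and 0.880% of MT-ND1 in G libraries and at 0.941%, 1.03% and 1.03% in A libraries. In both pairs the percentages of the groups overlapped, and G replicate 1 was lowest. The log2 ratio differed by -0.15 for MTND2P28 (exact permutation p = 1.0) and by -0.29 for MTND1P23 (exact permutation p = 0.4). Without G replicate 1 the first of these was 0.25, with both remaining G libraries above all A libraries (exact permutation p = 0.1, the smallest possible), and the second was -0.05.

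MTCO1P12, MTCO2P12 and MTCO3P12 resemble the genes of the 3 core subunits of cytochrome c oxidase, the enzyme that passes electrons to oxygen. The levels of the copies and of their counterparts ran in different orders. MTCO1P12, the copy of the gene for the catalytic subunit with the oxygen-binding heme, was at 84.7, 300.3 and 290 FPKM in G libraries and at 274, 356 and 328 FPKM in A libraries. G replicate 1 was far below the other libraries, and the other G libraries lay within the range of the A libraries. Its log2 change was -0.70 ± 0.48 (SE; 95% interval -1.87 to 0.46), with a limma adjusted p of 0.488. Without G replicate 1 the change was -0.11.

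MTCO2P12, the copy of the gene for the subunit that takes electrons from cytochrome c, was at 4.62, 6.81 and 6.44 FPKM in G libraries and at 10.5, 9.48 and 8.44 FPKM in A libraries. MTCO3P12, the copy of the gene for the remaining core subunit, was at 5.79, 8.28 and 7.63 FPKM in G libraries and at 14.6, 16.0 and 11.8 FPKM in A libraries. In both, all G libraries were below all A libraries. The log2 change was -0.60 ± 0.14 (SE; 95% interval -0.94 to -0.25) for MTCO2P12, with a limma adjusted p of 0.184. For MTCO3P12 it was -0.88 ± 0.15 (SE; 95% interval -1.25 to -0.51), the most negative of the 7, with a limma adjusted p of 0.146. Neither passed the threshold.

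Among the counterparts in complex IV, MT-CO3 fell by 0.69 on the log2 scale (limma adjusted p = 0.0241). Its level was 2312 ± 154 FPKM in G libraries and 3733 ± 80.1 FPKM in A libraries (SD, n = 3 each), and its call held only without G replicate 2 when 1 library was left out (adjusted p 0.0589 to 0.117 without each other library). Under quantile normalization the change of MT-CO3 was -0.15 (adjusted p = 0.143), and over all 19 alternatives its call held in 9. MT-CO2 was at 4020 ± 187 FPKM in G libraries and 5334 ± 30.2 FPKM in A libraries (SD, n = 3 each), with a log2 change of -0.41 and a limma adjusted p of 0.0566. MT-CO1 was at 6159 ± 171 FPKM in G libraries and 7049 ± 102 FPKM in A libraries (SD, n = 3 each), with a log2 change of -0.19 and a limma adjusted p of 0.159. The change of MT-CO1 was -0.09 with equal sums per library and 0.00 under quantile normalization. MTCO1P12 was at 1.42%, 4.80% and 4.62% of MT-CO1 in G libraries and at 3.84%, 5.04% and 4.73% in A libraries. MTCO2P12 stayed between 0.112% and 0.195% of MT-CO2, and MTCO3P12 between 0.245% and 0.436% of MT-CO3, with overlapping groups in each pair. The log2 ratios differed by -0.51, -0.19 and -0.19 in the order MTCO1P12, MTCO2P12 and MTCO3P12 (exact permutation p = 0.6, 0.5 and 0.5). Without G replicate 1 these differences were 0.06, -0.02 and -0.04.

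**Figure D3:**
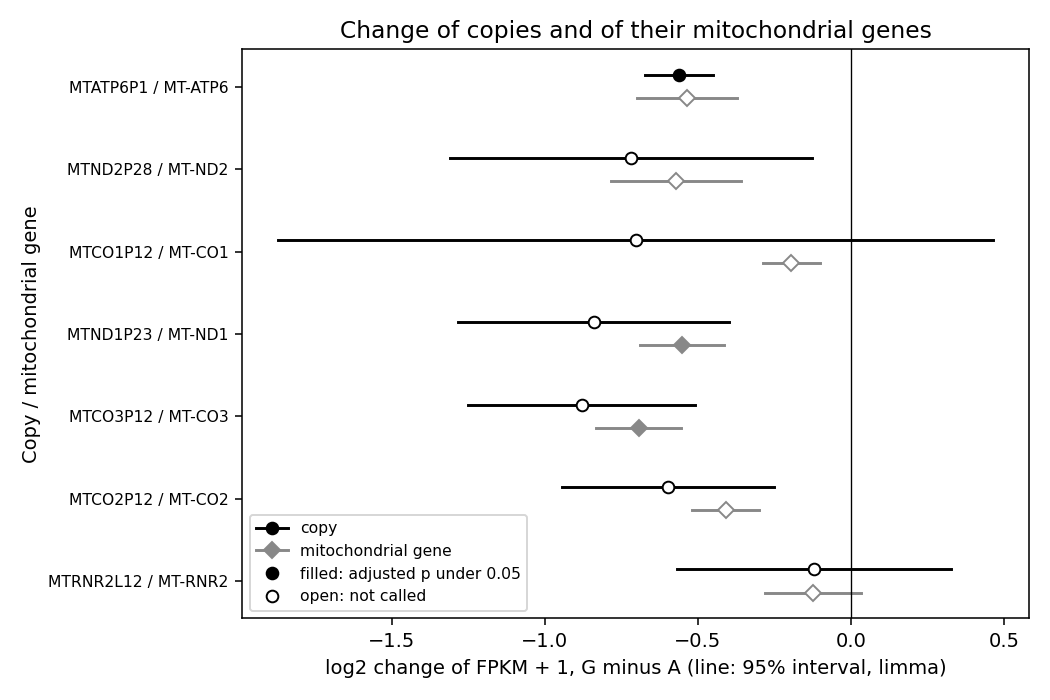
The log2 change of FPKM + 1, G minus A, for 7 copies (black circles) and their mitochondrial genes (grey diamonds), with 95% intervals from limma, where filled symbols passed an adjusted p of 0.05. MTATP6P1 has the narrowest interval among the copies (-0.67 to -0.45) and MTCO1P12 the widest (-1.87 to 0.46).

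MTRNR2L12 and MTRNR2L8 resemble MT-RNR2, the large ribosomal RNA of the mitochondrion. Both were close to 1 FPKM. MTRNR2L12 was at 0.996, 1.10 and 0.894 FPKM in G libraries and at 0.735, 1.84 and 1.08 FPKM in A libraries, so the groups overlapped and A replicate 2 stood highest. Its log2 change was -0.12 ± 0.19 (SE; 95% interval -0.57 to 0.33), with a limma adjusted p of 0.757. Without A replicate 2 the change was 0.07. MTRNR2L8 was at 0.870, 1.11 and 0.955 FPKM in G libraries and at 0.741, 0.760 and 1.12 FPKM in A libraries. It reached 1 FPKM in 2 libraries and was therefore not in the test. With a filter of 0.1 FPKM, over 20234 genes, its log2 change was 0.08 (95% interval -0.18 to 0.34) and its limma adjusted p was 0.771.

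The rRNA copies were thus a small trace beside MT-RNR2, which was at 5077, 4352 and 4665 FPKM in G libraries and at 4896, 5247 and 5193 FPKM in A libraries. MT-RNR2 overlapped between groups, with a log2 change of -0.12 and a limma adjusted p of 0.381. MTRNR2L8 was between 0.0145% and 0.0254% of MT-RNR2 over the 6 libraries, and MTRNR2L12 between 0.0150% and 0.0351%. The log2 ratio differed by 0.21 for MTRNR2L8 (exact permutation p = 0.2) and by 0.00 for MTRNR2L12 (exact permutation p = 1.0). Across their aligned bases the 2 rRNA copies were 95.5% identical to each other, with 47 differences.

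**Figure D4:**
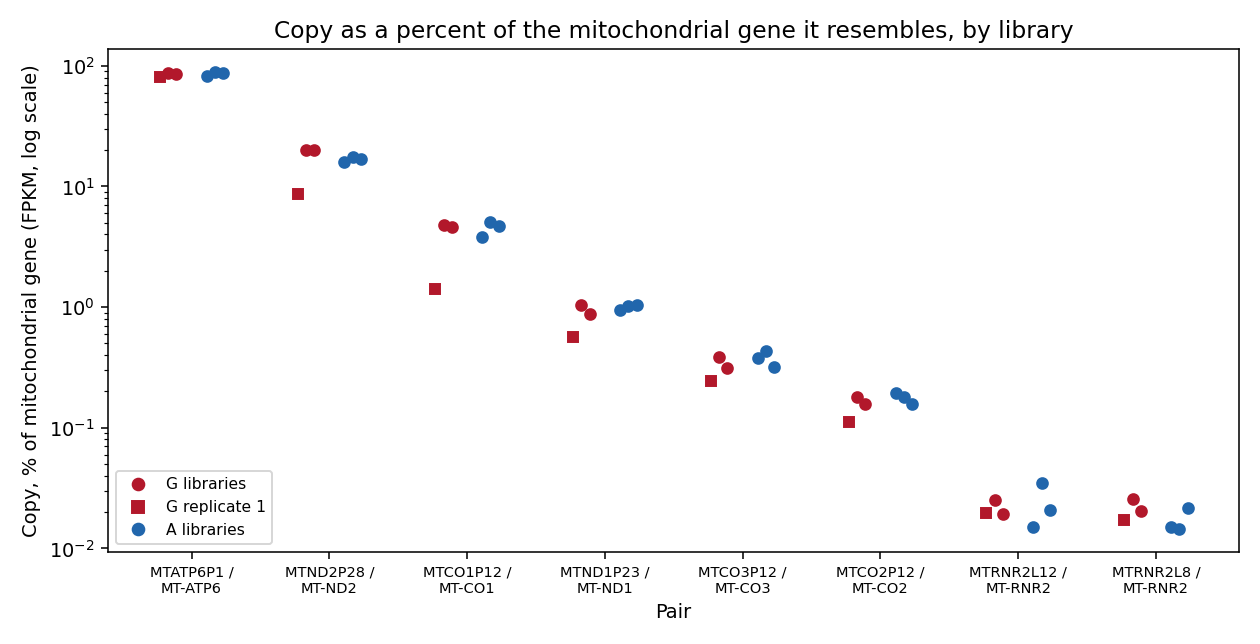
Each copy as a percent of the FPKM of its mitochondrial gene in each library, on a log axis, with G to the left of A. The groups overlap in all 8 pairs, and G replicate 1 (square) is the lowest library in the 6 pairs of chromosome 1.

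The ratio of copy to counterpart did not separate the groups, which overlapped in all 8 pairs. The difference of the log2 ratio, G minus A, was negative in 6 pairs, and in 3 pairs once G replicate 1 was left out. A p of 0.1 or more, in a design that cannot go lower, does not show that copy and counterpart changed by the same amount. The ratio is measured in the same library for both, so, apart from the pseudocount of 1 FPKM, it does not depend on the scaling of that library.

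Sums of copy and counterpart, weighted by length, were also compared for each mitochondrial gene in place of the separate rows. With MTND2P28 and MT-ND2 added, the sum was at 2061 ± 146 FPKM in G libraries and 3077 ± 30.4 FPKM in A libraries (SD, n = 3 each), and it fell by 0.58 on the log2 scale (limma adjusted p = 0.0426). The sum with MT-CO2 fell by 0.41 (limma adjusted p = 0.0488). On its own, MT-CO2 had nearly the same log2 change, -0.41, with a limma adjusted p of 0.0566. MTCO2P12 was at most 0.195% of MT-CO2, so this sum was nearly MT-CO2 itself. Alone, MT-CO2 passed with pseudocounts of 0.1 and 0.01 FPKM and with library weights (limma adjusted p = 0.0486, 0.0474 and 0.0425). The sums with MT-ND1 and MT-CO3 fell by 0.55 and 0.69 (limma adjusted p = 0.0426 and 0.0262). Those with MT-CO1 and MT-RNR2 did not pass, with log2 changes of -0.21 and -0.12 (limma adjusted p = 0.166 and 0.380). The fit with sums called 18 genes over the whole table, against 14 with separate rows. The sums were not refitted with a library left out.

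G replicate 1 had the lowest ratio of the 6 libraries in all 6 pairs of chromosome 1. For MTATP6P1 this was by little, at 81.0% of MT-ATP6 against 82.6% in A replicate 1. The level in G replicate 1 was 28.7% of the mean of the other G libraries for MTCO1P12, 53.4% for MTND2P28 and 63.9% for MTND1P23. It was 69.8% for MTCO2P12, 72.8% for MTCO3P12 and 106% for MTATP6P1. The mitochondrial genes of the same library did not share this: MT-CO1 was at 95.3% and MT-ND2 at 122% of the other G libraries. Over all 12787 tested genes the median of this percentage was 99.8%. Only 0.68% of tested genes were at or below the value of MTCO1P12, 2.48% at or below that of MTND2P28 and 4.03% at or below that of MTND1P23. These 3 copies were also the ones with 150-base windows identical to the counterpart, of which MTND1P23 had 9 of 223. MTCO2P12 and MTCO3P12 had no such window, and their levels were likewise the lowest of the 6 libraries in G replicate 1. The level was lowest in that library for 17.5% of tested genes. The part of read assignment in these values was not tested.

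Of the 407 annotated nuclear copies of mitochondrial genes, members included, few others had any level. Among the other 399, 341 had no estimate in any library, 58 had one in at least 1 library and 9 had one in all 6. MTND4P12 on chromosome 5 (134926660 to 134928036), a copy of the complex I gene MT-ND4, was the only one to reach 1 FPKM. It was at 2.58, 2.13 and 2.85 FPKM in G libraries and at 3.10, 4.19 and 2.62 FPKM in A libraries, with overlapping groups. Its log2 change was -0.28 (95% interval -0.65 to 0.09, limma adjusted p = 0.397). All 399 together summed to 7.17 ± 1.12 FPKM in G libraries and 6.75 ± 1.66 FPKM in A libraries (SD, n = 3 each).

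Among tested genes outside the mitochondrial genome and its copies, the 5 whose log2 values ran most like those of MTATP6P1 over the 6 libraries were CCND1, AP001972, VPS33B, TGFB2-OT1 and AC023043. Their Pearson r lay between 0.994 and 0.998, and 84 of 12742 genes reached 0.95. CCND1, which encodes the cyclin D1 of the G1 phase, was at 7.94, 7.40 and 7.59 FPKM in G libraries and at 9.63, 9.98 and 9.59 FPKM in A libraries. VPS33B, a gene of vesicle fusion, was at 2.11, 1.57 and 2.00 FPKM in G libraries and at 4.41, 4.79 and 4.28 FPKM in A libraries. The 5 most like MTND2P28 were OXA1L, FOXC1, EEF1G, CERS4 and ANKRD9 (r 0.987 to 0.993), and 63 of 12742 genes reached 0.95. Like MTND2P28, all 5 were lowest in G replicate 1, so their r also rests on that library. OXA1L, which encodes an insertase of the mitochondrial inner membrane, was at 25.2, 30.1 and 30.2 FPKM in G libraries and at 33.5, 33.6 and 33.0 FPKM in A libraries. These r values describe 6 libraries that fall into 2 groups, and they carry no test.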

How the data were processed

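Poly(A) RNA of 6 libraries was sequenced as stranded 150-base read pairs, per the labels' protocols. Reads were trimmed, aligned and quantified by the authors; the submitters' processing notes list StringTie 1.3.4d, HISAT2 2.0.4 and cutadapt 1.9. The notes name a mouse build, which the human identifiers contradict; all 15 copies and counterparts had the GRCh38 position of GENCODE release 29, whose transcripts gave the sequences. The authors deposited FPKM per gene (58825) and per transcript (208460), and their own G over A ratio, also as log2, beside a p-value and q-value for each row, per the file headers. Strand setting, annotation and the authors' test: not given in the sources used here. A deposited FPKM of 0.0001 was read as no estimate.

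From these values, log2(FPKM + 1) was compared, G minus A, with limma 3.58.1 (limma-trend, R 4.3.3) for the 12787 genes that reached 1 FPKM in 3 or more libraries, with Benjamini-Hochberg adjustment over all of them at 0.05. The fit was run on simulated data with planted changes larger than those of the copies. Recovery of changes as small as theirs was not tested. Ratios of copy to counterpart were compared with an exact two-sided permutation test. Sequences were aligned with Biopython 1.88. Of low values, 26.1% to 28.1% were whole multiples of the best-fitting read-pair step within 0.02, a share given without a chance rate. That step stood for 19760000 to 23320000 read pairs per library. Most low values were not whole multiples, so whole reads were not recovered. The depth was therefore not established, and no count model was used. Deviations of same-numbered libraries were only weakly correlated (r 0.015 to 0.073 across genes, against -0.056 to 0.016 for libraries of different numbers). The copies, the lists and the tests were chosen with earlier results of these data known. Named genes were the 8 copies, their counterparts, neighbours on the stretch and, for the 2 most abundant copies, the 5 genes most like each. No library was left out of the main comparison. Alternatives changed the pseudocount, filter, scaling, variance model, library weights, replicate block, set of libraries and the separation of copy and counterpart.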

Additional observations from a re-analysis of the deposited data

How the results depend on the processing

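The number of genes called was 14. It was 1 with no filter (30736 genes with an estimate in any library), 5 with a filter of 0.1 FPKM, 9 with median-ratio factors, 6 with quantile normalization, 4 with no variance trend and 0 with the replicate block, where the numbers of the labels are not shown to pair the libraries. The remaining settings that used every library gave 12 to 21 genes. Leaving out 1 library gave 5 to 20 genes, and each of these fits kept only 2 to 8 of the 14. The 1 call among the copies, MTATP6P1, became 0 with no filter, with the filter of 0.1 FPKM, under quantile normalization, with no variance trend and with the replicate block (adjusted p = 0.261), and leaving out 1 library gave 0 to 1. The log2 change of MTATP6P1 lay between -0.59 and -0.38 over 18 alternatives, 8 of which kept the call (adjusted p 0.0152 to 0.261). With equal sums per library the median of all genes moved to 0.11 and MTATP6P1 was at -0.45, still called. The 5 other copies of chromosome 1 kept a negative change and missed the threshold under all 18 alternatives each.

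With 1 library left out, the log2 ratio difference lay between -0.057 and 0.0058 for MTATP6P1, between -0.346 and 0.25 for MTND2P28 and between -0.808 and 0.0644 for MTCO1P12, above 0 only without G replicate 1. That of MTRNR2L12 was -0.056 and -0.064 with pseudocounts of 0.1 and 0.01 FPKM and between -0.13 and 0.18 with 1 library left out. The log2 change of MTRNR2L12 lay between -0.283 and 0.0728 with 1 library left out, above 0 only without A replicate 2, and that of MT-RNR2 was 0.0634 under quantile normalization. Quantile normalization gave -0.32 for MT-ATP6, -0.22 for MT-ND2 and -0.24 for MT-CO2. The call of MT-ND1 ended in 15 of 19 alternatives and that of MT-CO3 in 10 of 19. The causes were not tested. The replicate block left no gene called and turned no ratio.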

Other observations

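Below 1 FPKM, other annotated copies gave values that belong in no comparison. MTRNR2L2, a humanin-like copy of MT-RNR2, was listed at 0.235, 0.123 and 0.835 FPKM in G libraries and had no estimate in any A library. MTND6P4, a copy of the complex I gene MT-ND6, was at 0.624, 0.570 and 0.359 FPKM in G libraries and at 0.824, 0.668 and 0.647 FPKM in A libraries. MTCO2P2 on chromosome 18, which shares a 150-base window with MTCO2P12, was at 0.848, 0.418 and 0.818 FPKM in G libraries and at 0.953, 0.883 and 0.519 FPKM in A libraries.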
